A study of Sus scrofa with 70 samples.

Results

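Full-splice-match (FSM) isoforms are long-read transcripts that use every splice junction of an annotated transcript, so that they can differ from it only in where the RNA starts and where it ends. Of 110996 isoforms in the Iso-seq data of boar reproductive organs, 7260 were FSM, and 4025 of these (55.4%), from 3611 genes, started or ended more than 100 bp from the annotated transcript. These 4025 isoforms with shifted ends were chosen by that distance alone, without the read counts, so the distances describe the choice. The reads and sequences below did not enter it, but a comparison with the annotated end is not apart from it. The 3′ end was shifted in 2613 isoforms and the 5′ end in 2250, with 1775 shifted at the 3′ end only, 1412 at the 5′ end only and 838 at both. Full-length reads were counted in 10 libraries, 1 from each of 5 organs (testis, epididymis and the vesicular, prostate and bulbourethral glands) of the Banna mini-pig inbred line (BMI) and of the Diannan small-ear pig (DSE). Short-read RNA-seq covered the same 5 glands and both breeds with 3 libraries for each, 30 in all. All tissues came from adult boars aged 12 months, and the labels do not tie the libraries to individual animals. The spread between libraries may therefore be partly technical, and whether any animals were shared is not known.

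The 3′ end of an mRNA is made by cleavage of the nascent RNA and addition of a poly(A) tail. The CPSF complex reads a hexamer upstream of the cut, most often AATAAA or ATTAAA in DNA letters, and the CstF complex reads the sequence downstream of it. Many genes carry more than 1 such signal, and the choice between them sets the length of the 3′ untranslated region (3′ UTR), where miRNAs and RNA-binding proteins attach. Male germ cells are known for using signals close to the stop codon and for tolerating variant hexamers. The 5′ end is set by the choice of transcription start, and a long-read library can also lose it when an RNA is broken or copied in part. Shortening or lengthening at the 3′ end in testis against the other glands was the comparison followed here.

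The 3′ end lay upstream of the annotated end in 1320 isoforms of 1265 genes (3′ shortened) and downstream of it in 1293 isoforms of 1168 genes (3′ lengthened). The median distance was 926 bp for the shortened and 1010 bp for the lengthened 3′ ends, and 47.5% and 50.3% of them lay more than 1000 bp away. Shifts at the 5′ end were shorter, with a median of 229 bp for the 696 isoforms that began inside the annotated transcript (5′ shortened) and 233 bp for the 1554 that began upstream of it (5′ lengthened). The longest 3′ extension, 7304 bp, belonged to WDR4, a subunit of a tRNA methyltransferase, with 9 reads. The isoform of RAB3C, a small GTPase of secretory vesicles, was cut short by 6659 bp with 3 reads. The 3′ ends just inside the limit of 100 bp were those of FOXO1 (103 bp, shortened) and ALDH1A1 (102 bp, lengthened), and just outside it lay C2orf74 (100 bp, lengthened). At the 5′ end, LYZL6 (101 bp, shortened) and AATF (101 bp, lengthened) lay just inside, and C15orf61 and ZNF428 (both 100 bp) just outside.

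**Figure D1:**
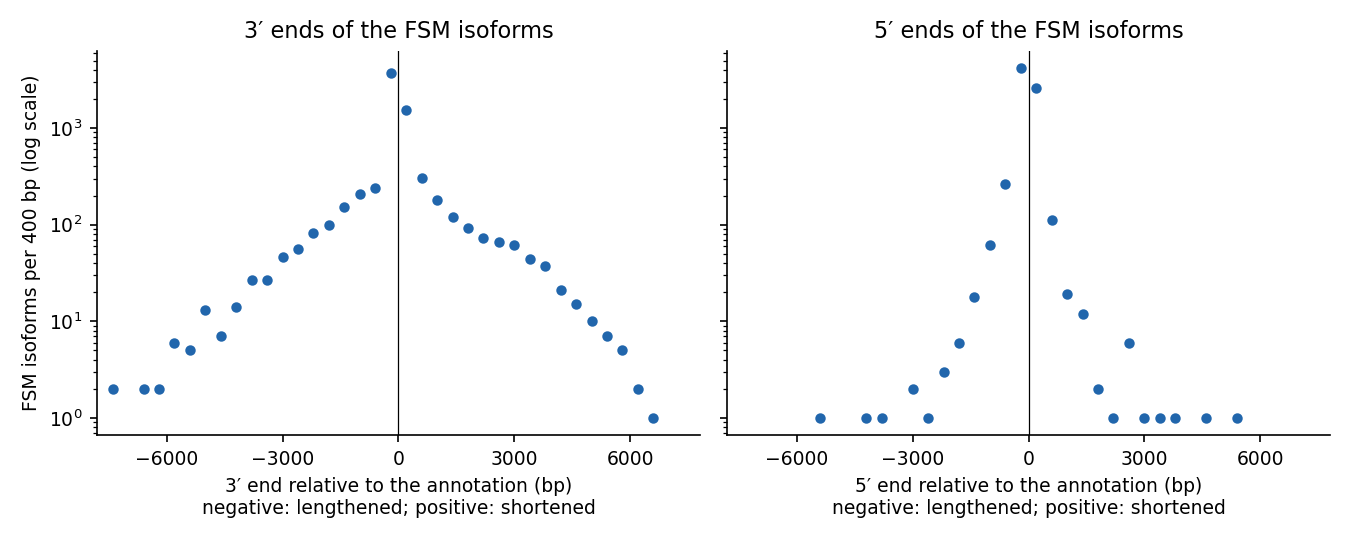
Numbers of FSM isoforms (log scale) by the distance of the 3′ end (left) and the 5′ end (right) from the annotated transcript, in bp, counted in steps of 400 bp, with 1 point per step that holds an isoform. Both plots peak at 0, and the 3′ ends reach 7304 bp beyond and 6659 bp short of the annotated end, while 5′ ends fall away within about 1000 bp.

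The 7260 FSM isoforms matched 7260 annotated transcripts, each with an intron chain of its own, so every chain had a single deposited FSM isoform. Reads with the same junctions but different ends were therefore merged before deposit and cannot be told apart, so the ends of a gene could be compared only between isoforms that differ in an intron.

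The sequence at the shifted 3′ ends fell into different kinds, and the ends printed here were picked after their values were seen to show them. Each line gives the last 30 bases before the end on the RNA's strand, in Sscrofa11.1, with capitals on the letters of the hexamer reported for that isoform.

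C1orf56: tttttaAATAAAtacttctttaaagacttg
SHCBP1L: ttcttttaAATAAAttttttgatataattc
TUBA4A: gtgccATTAAAagtcaggttgtctcccgtt
VSIG1: ctttttaAATAAAgtagtaaatctcgaact
BCAS1: tgatttAATAAAaaaaaatacatttatatc
EIF4G2: aaaaAATAAAaaatccttgactttttcctc

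These ends carried a canonical hexamer, with 17 bases from its reported position to the end in SHCBP1L and 21 in EIF4G2. The first 3 are 3′ shortened and the other 3 are 3′ lengthened. C1orf56 (also called MENT) ended at chr4:98181069-98181098, 702 bp short of the annotated end, and EIF4G2, a translation initiation factor, at chr2:48682447-48682476, 3823 bp beyond it. A different kind of end is shown in the next lines, which give the last 30 bases and then the 20 genomic bases that follow the end.

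RDH12, last bases: atatgccatgggagtggcccAAGAAAgggc
RDH12, next bases: aaaaagacaaaaaaaaaaga
ADAM2, last bases: ggaacttccatgtgccataggtgcggccct
ADAM2, next bases: aaaaggacaaaaaaaacaaa
SEMA4A, last bases: acatgccgtgggagcggccccagaaaaggc
SEMA4A, next bases: aaaaagacaaaaaagaaaaa
DNAJC22, last bases: ggaacctccatatgctgcaagtgcagccct
DNAJC22, next bases: aaaaagacaaaaataaataa

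None of these 4 ends holds AATAAA or ATTAAA in the last bases shown, and each runs into an A-rich stretch of the genome. RDH12 (chr7:91495594-91495623), ADAM2 (chr15:47278619-47278648) and SEMA4A (chr4:93863224-93863253) are 3′ lengthened by 1814, 333 and 1834 bp, and DNAJC22 (chr5:15335492-15335521) is 3′ shortened by 429 bp. An oligo(dT) primer can anneal to such stretches inside an RNA, and whether the printed ends were made in that way was not tested.

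Shifted 3′ ends more often lay next to an A-rich stretch and less often had a hexamer than unshifted FSM ends. A hexamer was reported for 80.2% of the 3′ shortened and 79.0% of the 3′ lengthened isoforms, against 92.0% of the 3235 FSM isoforms with both ends within 100 bp. AATAAA itself was the hexamer in 45.4%, 44.9% and 66.8%. At least 60% A in the 20 bases after the end was found in 27.8%, 29.9% and 9.95%, and a hexamer without such a stretch in 68.4%, 65.7% and 87.1%. The 5′ shortened and 5′ lengthened isoforms, which may also have a shifted 3′ end, lay between, with a hexamer in 88.1% and 86.4%. Over the 10 libraries, the isoforms with shifted ends found in a library had a hexamer in 84.0% ± 0.434 (SD, n = 10), and the other FSM isoforms found in it in 92.3% ± 0.244. The difference had the same sign in 10 of 10 libraries (adjusted p = 0.0025, exact sign-flip permutation test over libraries, two-sided). An A-rich stretch followed the end in 22.1% ± 1.11 against 9.46% ± 0.296, higher in 10 of 10 libraries (adjusted p = 0.0025, same exact test). These features are fixed for an isoform and the libraries share many isoforms, so a common sign largely follows from the shares over all isoforms. The p-values cover the sampling of libraries and not of transcripts, and are no support beyond the shares.

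RefSeq, an annotation made apart from the Ensembl models that define FSM, had an end within 50 bp of 45.3% of the 3′ shortened and 30.8% of the 3′ lengthened ends, against 77.6% of the ends of unshifted isoforms. Another annotated transcript of the same gene ended within 50 bp in 21.9% and 19.95%. The 3′ end fell in masked repeat sequence in 43.2% and 49.0%, against 30.5% of unshifted isoforms. The run AAAAGACAAAA, which is bases 2 to 12 of the SEMA4A tail above, chosen after these tails were seen and searched on the transcript strand in the 20 bases after the end, followed 36 shortened (2.73%) and 39 lengthened (3.02%) ends, against 17 (0.526%) of the unshifted FSM isoforms. Only 10 of 1285 coding 3′ shortened isoforms ended before the annotated stop codon, so nearly all kept the whole annotated coding sequence at that side. This follows in part from the definition, since an FSM isoform has to reach the last annotated exon. Of 687 coding 5′ shortened isoforms, 232 (33.8%) began after the annotated start codon.

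The shifted end was also set against the annotated end of the same isoform. In the 3′ shortened isoforms, AATAAA or ATTAAA stood in the last 50 bases before 57.9% of the shifted and 45.2% of the annotated ends (n = 1308 on numbered and sex chromosomes). A RefSeq end lay within 50 bp of 45.3% of the shifted ends and 17.5% of the annotated ones, with 556 isoforms supported at the shifted end only and 192 at the annotated end only. In the 3′ lengthened isoforms (n = 1277), these hexamers preceded 58.2% of the shifted and 48.1% of the annotated ends, but RefSeq ends lay by 30.8% of the shifted and 37.98% of the annotated ends. An A-rich stretch followed shifted ends more often in both kinds, 27.8% against 19.7% for the shortened and 29.8% against 15.9% for the lengthened. Each of these 6 differences had 1 sign in 10 of 10 libraries, with an adjusted p of 0.00195 in the exact sign-flip permutation test, the smallest it can give. Each feature is fixed for an isoform and the libraries draw on 1 shared list, so a common sign largely follows from the shares. The p-value is therefore no support beyond them. These isoforms were also chosen because an end differs from the annotation, so the contrast with the annotated end follows in part from the choice. The comparison of both ends was chosen after the data had been seen.

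**Figure D2:**
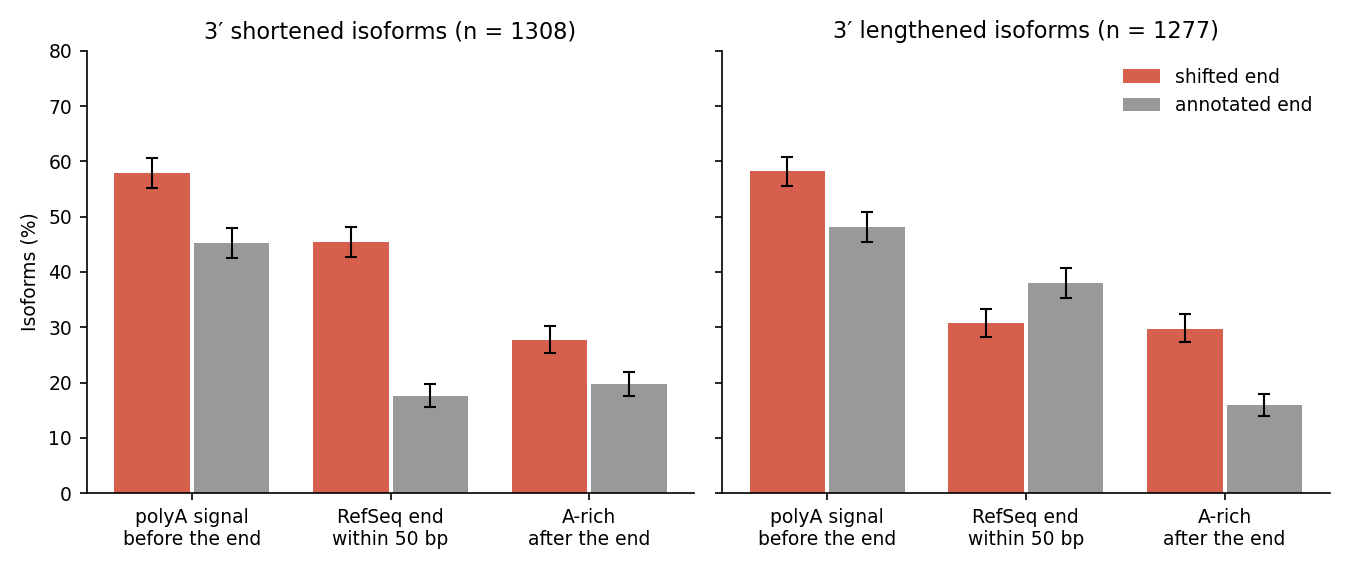
Share of isoforms (%) with a polyA signal (AATAAA or ATTAAA) in the last 50 bases, with a RefSeq end within 50 bp and with at least 60% A in the next 20 bases, at the shifted (red) and the annotated (grey) 3′ end, with 95% Wilson intervals as bars. The polyA signal and the A-rich stretch are both more frequent at the shifted end, and the RefSeq end is more frequent there in 3′ shortened (45.3% against 17.5%) but not in 3′ lengthened isoforms (30.8% against 37.98%).

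Before the glands are compared, the libraries need a word. The BMI epididymis library was the deepest, with 458697 full-length reads, and the DSE epididymis library the shallowest, with 231413. The isoforms with shifted ends took 11.8% to 15.01% of the reads of a library. Over 8675 genes, log2 values of the 2 testis libraries, in reads scaled to the library total (CPM), correlated at r = 0.92 across genes, but BMI prostate gland was closer to BMI vesicular gland (0.89) than to DSE prostate gland (0.76), which was closer to the bulbourethral glands (0.82 and 0.83). Whether a prostate library carries the wrong gland or breed label was not tested, so values given below for prostate gland are those of the libraries so labelled. The read shares, the tests of isoforms and ends and the positions on last exons were also computed without both of them. Markers of spermatids summed to 949 to 1352 CPM in testis, 0 to 17.3 CPM in epididymis and 0 in the other glands. In bulk tissue, fewer cells of a type and less RNA per cell cannot be told apart.

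None of the shares of FSM reads that fell in each kind of isoform passed the test between testis and the other glands after adjustment. In testis, 3′ shortened isoforms took 18.7% of the FSM reads in BMI and 19.3% in DSE. The 8 other libraries ranged from 13.5% to 19.99% with a median of 16.8%, so that DSE prostate gland lay above both testis libraries. The difference of the means was 2.36 percentage points (exact permutation test, two-sided, p = 0.133, adjusted p = 0.267 over 4 kinds). Without DSE prostate gland it was 2.84 points (exact permutation test, p = 0.0556) and without both prostate libraries 2.99 points (exact permutation test, p = 0.0714), with testis then above all others and each p the smallest those numbers of libraries can give. For 3′ lengthened isoforms, testis had 21.8% and 21.0%, below all 8 others, which ranged from 22.6% to 30.2% with a median of 23.5%. That difference was -2.81 points (exact permutation test, p = 0.0444, the smallest that 2 against 8 libraries can give, adjusted p = 0.178). The 5′ shortened isoforms differed by 0.52 points (exact permutation test, adjusted p = 0.444) and the 5′ lengthened by -4.01 points (exact permutation test, adjusted p = 0.296). The last value varied with the distance, with -0.922 points for shifts above 50 bp, -1.83 above 200 bp and -0.188 above 1000 bp. These values leaned on the most abundant isoforms. Without the 10 FSM isoforms with the most reads, testis had 21.8% and 21.1% of reads in 3′ lengthened isoforms and the others 20.8% and above, so the groups overlapped (-1.62 points, exact permutation test, p = 0.4). The differences for 3′ shortened, 5′ shortened and 5′ lengthened isoforms were then 1.39, 0.0411 and -0.868 points. With only shifts above 1000 bp, the difference for 3′ shortened isoforms was -1.34 points, on the other side of 0.

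**Figure D3:**
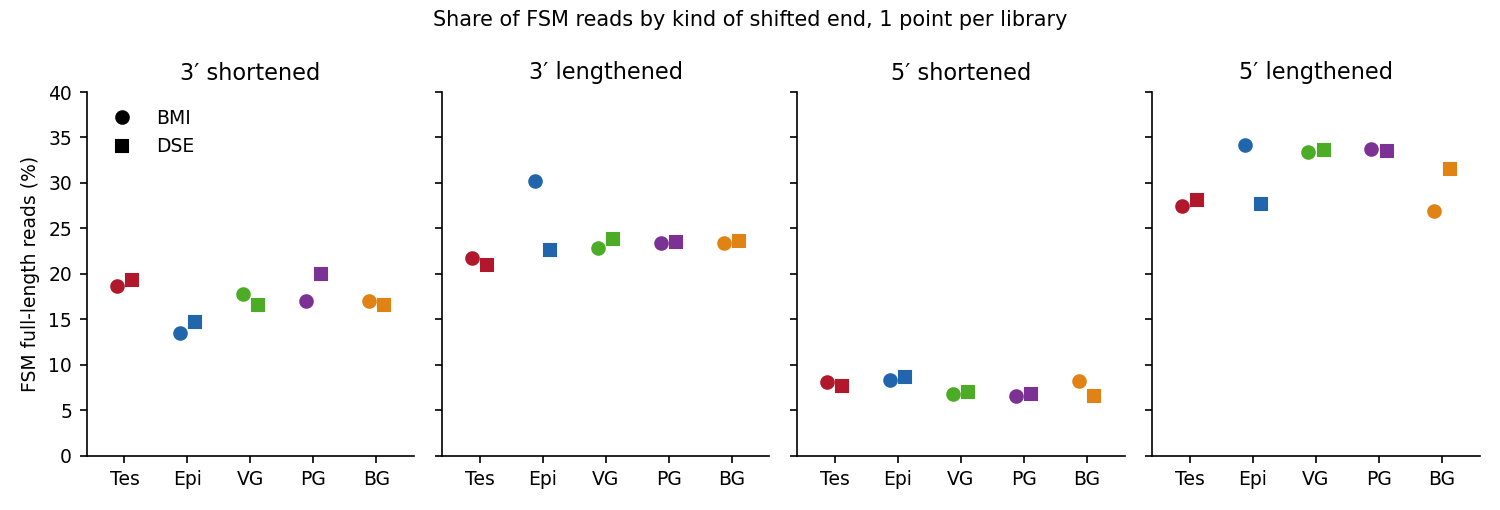
Share of FSM full-length reads (%) in isoforms of each kind of shifted end, 1 point per library (circles BMI, squares DSE), for testis (Tes), epididymis (Epi), vesicular (VG), prostate (PG) and bulbourethral gland (BG). Testis lies below the other 8 libraries for 3′ lengthened isoforms (21.8% and 21.0% against 22.6% and above), which did not hold without the 10 FSM isoforms with the most reads, and among them for the other kinds.

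Individual isoforms were tested on their reads with edgeR's quasi-likelihood test, testis against the mean of the 4 other glands, where the isoform had at least 10 reads. Of all 27780 isoforms tested, 22.5% were called higher and 4.47% lower in testis, where a call needed both an adjusted p under 0.05 and a log2 fold change of 1 or more in size. Of the 1320 3′ shortened isoforms, 909 had enough reads, of which 191 (21.0%) were higher and 46 (5.06%) lower. For the 3′ lengthened isoforms, 828 of 1293 were tested, with 152 (18.4%) higher and 70 (8.45%) lower. Both kinds thus had about the background share of higher calls. The unshifted FSM isoforms had 388 (18.3%) higher and 96 (4.52%) lower of 2122. The median log2 fold change was 0.06 for the 3′ shortened and -0.22 for the 3′ lengthened isoforms, beside -0.14 for all tested isoforms. Scaling to library totals moved the median of all isoforms by -0.42, and the calls of 3′ lengthened isoforms then split into 131 (15.8%) higher and 104 (12.6%) lower, beside 20.2% and 7.37% of all isoforms. A fit without either testis library leaves 1 library for testis and takes the spread from the other glands. Fewer 3′ shortened and 3′ lengthened isoforms were called then, and so were fewer of all isoforms, which the loss of a library alone can bring.

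The 3′ shortened isoforms that rose furthest in testis included genes used in spermatids. AKAP4, an anchor of protein kinase A in the fibrous sheath of the sperm tail, ended 206 bp early, before 20 bases with 85% A, and had 2292 CPM in BMI and 2949 CPM in DSE testis, 21.8 CPM in BMI epididymis and 0 in the 7 others (log2 fold change 12.06, SE 0.85 derived from the F statistic, adjusted p = 2.58e-42). TNP2, a transition protein that replaces histones in spermatids, ended 178 bp early, with 220 and 869 CPM in testis, 2.18 CPM in BMI epididymis and 0 elsewhere (adjusted p = 4.46e-34). In all 5 of these isoforms the testis libraries lay far above the others. C1orf56 had 727 and 817 CPM, SHCBP1L, a protein of the meiotic spindle, 292 and 474 CPM, and TUBA4A, an alpha-tubulin, 231 and 391 CPM in the testis libraries, with no read in the 8 others. Against a floor of 3 reads over the 8 other libraries, they were at least 658-fold, 327-fold and 265-fold higher in testis. The spermatid markers moved in the same direction, and how far the share of germ cells sets these differences was not tested. RNA-seq of the annotated transcripts was also higher in testis for all 5, by 5.45 (SHCBP1L) to 10.92 (TNP2) on the log2(TPM + 1) scale.

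The 3′ shortened isoforms that fell furthest in testis had no read there. GATA3, a transcription factor of epithelia and ducts, ended 121 bp early at a run of A. It had 11.3 to 1229 CPM outside testis, highest in BMI vesicular gland, which is at least 99.3-fold lower in testis against 3 reads over the 2 testis libraries (adjusted p = 3.54e-08). DNAJC22, a chaperone partner, MLLT3, a reader of histone acylation, and RASSF6, a Ras association domain protein, had 4.32 to 66.0, 3.14 to 50.6 and 4.32 to 56.5 CPM outside testis and no read in testis. The 20 bases after their ends were 80%, 90% and 75% A. Their bounds were lower, at least 10.1-fold, 6.91-fold and 6.43-fold. Markers of secretory gland epithelium were at 4.395 to 19.7 CPM in testis and 301 to 1922 CPM in the other glands, and their part in these values was not tested.

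Among 3′ lengthened isoforms, genes of germ cells were also among those that rose furthest. RDH12, a retinol dehydrogenase, had 2752 and 2565 CPM in testis and 0 to 18.9 CPM in the 8 others (log2 fold change 10.98, SE 0.79, adjusted p = 1.07e-40). DNAAF1, an assembly factor of axonemal dynein, was extended by 197 bp and had 914 and 1411 CPM in testis and 2.18 CPM in BMI epididymis only. PIWIL1, the PIWI protein that carries piRNAs in meiotic and later germ cells, was extended by 450 bp to an end before 70% A, with 703 and 644 CPM in testis and 4.36 CPM in BMI epididymis. ADAM2, the sperm surface protein fertilin beta, had 275 and 280 CPM in testis and no other read, at least 236-fold higher, and VSIG1, an adhesion protein of the immunoglobulin family, 512 and 417 CPM with 5.95 CPM in DSE prostate gland. All 5 were higher in RNA-seq too, by 5.21 to 9.30 on the log2(TPM + 1) scale.

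The 5 lengthened isoforms named for the largest fall had no read in testis. SEMA4A, a membrane semaphorin, had 38.9 to 147 CPM outside testis (at least 25.4-fold lower in testis, adjusted p = 2.67e-06), and BCAS1, a gene best known from myelinating cells, 15.7 to 270 CPM, highest in both epididymis libraries and in bulbourethral gland (at least 36.8-fold, adjusted p = 3.64e-06). The 20 bases after the ends of NAALADL2, DSC2 and CD320 were 60%, 95% and 80% A. NAALADL2, a peptidase relative, was extended by 2842 bp and had 4.32 to 129 CPM. DSC2, a desmosomal cadherin, had 4.32 to 192 CPM, and CD320, the receptor for transcobalamin, 8.93 to 77.8 CPM. All 5 annotated transcripts were lower in testis by RNA-seq, by -1.11 (NAALADL2) to -3.48 (DSC2) on the log2(TPM + 1) scale.

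**Figure D4:**
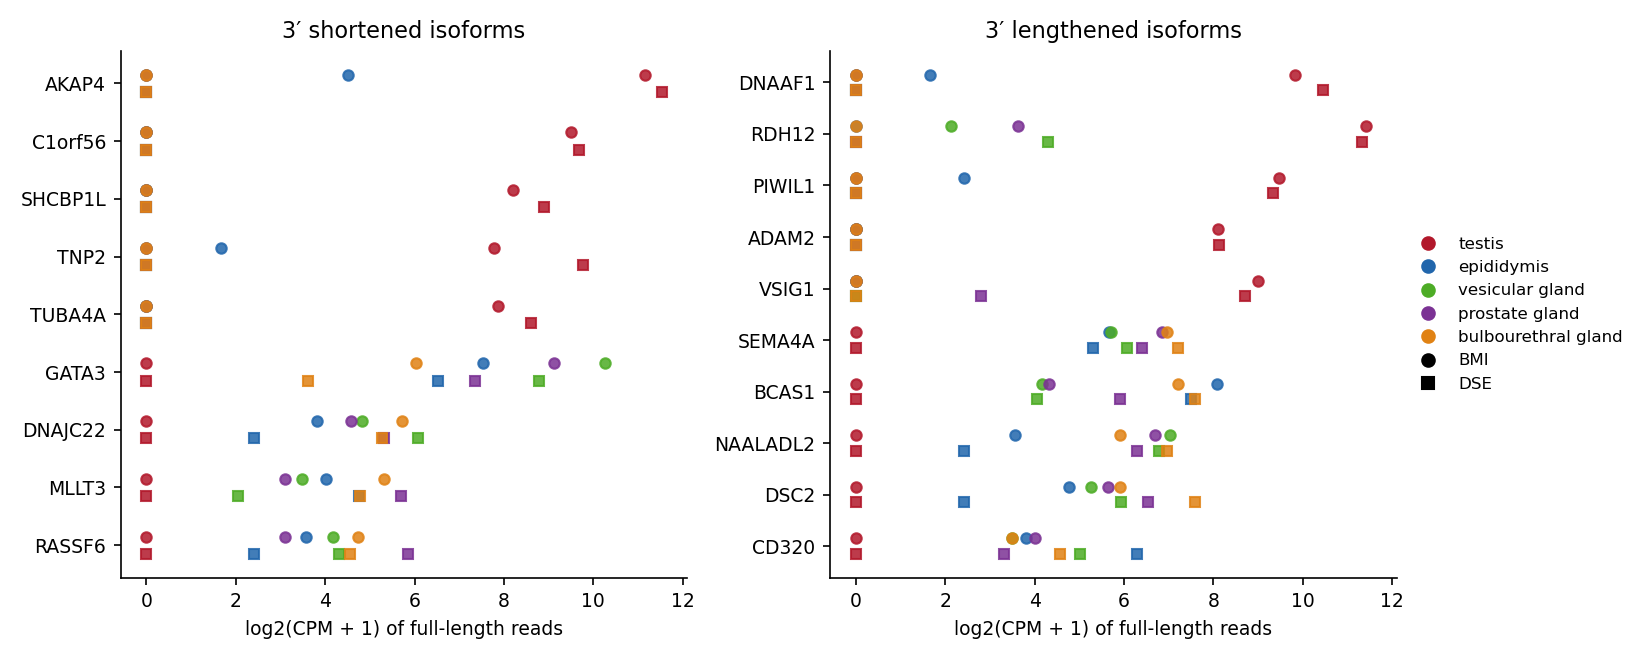
Full-length reads of the 3′ shortened (left) and 3′ lengthened isoforms (right) with the largest changes in testis, as log2(CPM + 1), 1 point per library (circles BMI, squares DSE, colour by gland). In the upper 5 rows of each plot testis lies at 231 CPM or more and every other library at 21.8 CPM or less, except TNP2 at 220 CPM in BMI testis, and in the lower rows (4 shortened, 5 lengthened) testis lies at 0.

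With a shifted 5′ end only, CYP17A1, the Leydig cell enzyme that makes androgen precursors, had 3261 and 4072 CPM in testis and no other read, at least 3124-fold higher, with a start 213 bp upstream. It had the most reads of all shifted isoforms in testis. DDX4, the VASA helicase of germ cells, had 716 and 555 CPM with at most 4.36 CPM elsewhere, and ATP8B3, a phospholipid flippase of the acrosome region, 477 and 559 CPM. SLC17A9, a nucleotide transporter of vesicles (51.9 to 376 CPM outside testis), POSTN, a matrix protein of fibroblasts (7.54 to 153 CPM), and SERPINF1, a secreted serpin (12.6 to 436 CPM), had no read in testis. They were at least 50.4-fold, 29.1-fold and 45.01-fold lower there.

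The shifted isoforms with the most reads outside testis showed how unevenly they spread over glands. In epididymis these included ADAM28, a metalloprotease extended by 1542 bp at the 3′ end. It had 10595 CPM in BMI but 60.5 CPM in DSE epididymis, below the 193 and 196 CPM of the bulbourethral glands. AWN, a spermadhesin of seminal plasma, had 4333 and 7966 CPM in vesicular gland and 6403 CPM in BMI but 0 in DSE prostate gland, along the split of the prostate libraries. SEC61A1, a channel subunit of the secretory path, had 1059 to 4473 CPM outside and 567 and 465 CPM in testis. EIF4G2 was spread more evenly, from 1123 to 3485 CPM over the 10 libraries.

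RNA-seq gave a replicated reading of the annotated transcripts, though not of the shifted ends. Of 64661 transcripts tested with limma on log2(TPM + 1), 28.4% were higher and 9.54% lower in testis. For 3′ shortened isoforms, 1036 of the 1320 annotated transcripts were tested, with 279 (26.9%) higher and 115 (11%) lower, and for 3′ lengthened isoforms 1173 of 1293, with 347 (29.6%) higher and 197 (16.8%) lower. The unshifted FSM transcripts had 745 (25.2%) higher and 446 (15.1%) lower of 2954. The lower share depended on the pseudocount: at 0.1 TPM it was 20.7% for the shortened and 20.03% for the lengthened isoforms, beside 19.9% of all transcripts, with 33.1% of both kinds and 35.0% of all higher. Of the 152 lengthened isoforms that were higher by Iso-seq, the annotated transcript was higher by RNA-seq in 145, and of the 191 shortened ones in 120, with 35 not tested. Of the lower ones, 51 of 70 lengthened and 26 of 46 shortened were lower by RNA-seq. Calls in opposite directions were made for HSPA4L, RAB22A, FOS and RNF6, which were picked for this after their values were seen. No FSM isoform was among the Iso-seq isoforms of the deposited annotation, so a shifted isoform had no TPM of its own. Its short reads could go to the annotated transcript or to other isoforms of the gene. Opposite signs therefore cannot show 1 form rising while the other falls. HSPA4L, a heat shock protein of germ cells cut short by 3582 bp in 2 isoforms, is the clearest case. Its isoform with the opposite call had a mean of 334 CPM in testis and 0.273 CPM elsewhere (log2 fold change 9.62), while the annotated transcript was lower in testis by -1.41 (SE 0.23, adjusted p = 1.12e-05) on the log2(TPM + 1) scale. RAB22A, an endosomal GTPase cut short by 3714 bp, was higher by 2.44 in Iso-seq and lower by -1.88 in RNA-seq. FOS, an immediate early transcription factor, was cut short by 2774 bp, with -2.69 in Iso-seq and 1.06 in RNA-seq. RNF6, a ubiquitin ligase extended by 104 bp, had 4.89 and -1.42.

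To separate an isoform from its gene, each isoform was compared with the other tested isoforms of its gene (edgeR diffSpliceDGE). Of 21681 isoforms, 6.88% had higher and 2.0% lower usage in testis. Among 441 tested 3′ shortened isoforms, 16 (3.63%) were higher and 10 (2.27%) lower, and among 524 3′ lengthened isoforms 16 (3.05%) and 14 (2.67%). The isoforms named next were taken over all kinds of shift. Usage rose for ATL3, a GTPase that shapes the endoplasmic reticulum, whose 3′ end was at the annotated one and whose start lay 289 bp upstream (299 and 312 CPM in testis, 0 to 10.9 CPM elsewhere, usage adjusted p = 1.06e-11). CADM1, an adhesion molecule, cut short by 728 bp at a run of A, and PICALM, a clathrin assembly protein with the annotated 3′ end and a start 491 bp upstream, had at most 30.6 CPM in testis and no other read. The annotated transcript of ATL3 went the other way in RNA-seq, by -3.11 on the log2(TPM + 1) scale, where the shifted isoform had no value of its own. Usage fell for MXI1, a MYC antagonist cut short by 1472 bp, with 10.99 and 10.92 CPM in testis and 0 to 77.2 CPM elsewhere (adjusted p = 8.99e-05), for NEURL1, a ubiquitin ligase cut short by 1036 bp at an A-rich stretch, for CDC14A, a phosphatase, and for a second isoform of TUBA4A. The NEURL1 isoform had 519 CPM in BMI epididymis and at most 18.0 CPM in any other library, and its own change in reads was not called. Both TUBA4A isoforms ended at the same base, 586 bp early, so what changed between them was the first part of the transcript and not the 3′ end. Fewer isoforms had a call of usage without either testis library, but such a fit leaves 1 library for testis.

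That case led to a test of the ends themselves, added after seeing the data. Isoforms of a gene were joined into 1 end while the next lay within 50 bp, so an end can span more than 50 bp. The reads of each end were summed and compared with the gene's other ends. Each read has the single deposited end of its isoform, so ends of reads with the same introns could not be compared. Of 6861 ends, 2.03% had higher and 1.18% lower usage in testis. Only 233 ends of 3′ shortened and 346 of 3′ lengthened isoforms could be tested, and 4 and 2 of these were called. CACHD1, a calcium channel-like protein, had 50.5 and 45.9 CPM at an end 563 bp early in testis and no read at that end in the 8 other libraries (adjusted p = 0.00964), and PDXDC1, a decarboxylase-like protein, had 85.7 and 91.7 CPM at an end 918 bp early in testis and at most 5.95 CPM elsewhere (adjusted p = 0.000215). The early ends of CDC14A (280 bp, adjusted p = 0.00262) and TTLL3, a tubulin glycylase (2496 bp, adjusted p = 0.00599), were used less relative to the other ends of their genes. CDC14A had 8.79 and 4.37 CPM at that end in testis, within the 0 to 41.4 CPM of the others, and TTLL3 21.98 and 15.3 CPM, below the 28.3 to 79.8 CPM of the others. Among extended ends, ANKHD1, an ankyrin repeat protein, was used more at 680 bp beyond the annotated end (105 and 111 CPM in testis, 0 to 15.2 CPM elsewhere, adjusted p = 0.000386), and CLIP4, a microtubule-binding protein, less at 116 bp (adjusted p = 0.043), with 83.5 and 96.1 CPM in testis, within the 0 to 722 CPM of the others. The 20 bases after the ANKHD1 end were 90% A and the nearest RefSeq end on that strand lay 62978 bp away, and whether it was primed inside the RNA was not tested. A fit without either testis library leaves 1 library for testis and takes the spread from the other glands. The calls of these ends were not made then, which the loss of a library alone can bring. Whether they rest on both testis libraries cannot be read from such fits. The last 30 bases of 4 of the called ends follow, picked after their values were seen, with the letters of the reported hexamer in capitals.

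CACHD1: ttagaaaTATAAAtgcaaatcagtgactac
CDC14A: aatacatAATAAAagttttacgcaatttac
PDXDC1: ctctgcaaatgtgaactgtgccacatgctc
ANKHD1: gtttaaAGTAAAaatttattatttaaagcc

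CDC14A, used less in testis, had AATAAA. CACHD1 and ANKHD1, used more, had the variants TATAAA and AGTAAA, and PDXDC1 had no listed hexamer. With 4 ends shown this is a description of these ends only.

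A gene's reads were also placed along its last exon, each at the single deposited end of its isoform, so a mean end reflects the mix of isoforms. Differences in end between reads with the same introns cannot be seen in it. This covered 57 last exons of 3′ shortened and 142 of 3′ lengthened isoforms (188 genes), again chosen after seeing the data. Their ends lie more than 100 bp apart, and each exon had at least 5 reads in every library. The mean 3′ end lay 3.06 bp further downstream in testis for the shortened (exact permutation test, p = 0.711) and 1.94 bp further for the lengthened set (exact permutation test, p = 0.933). Neither difference was larger than the range of the other libraries, -12.7 to 11.4 bp and -22.2 to 7.56 bp, and both changed sign when single libraries were left out. The shortened set gave -8.58 bp without the BMI testis and -1.42 bp without the DSE epididymis library, and the lengthened set -2.36 bp without the DSE testis, -4.95 bp without the DSE epididymis and -0.545 and -1.41 bp without the BMI and DSE prostate libraries. Without both prostate libraries they gave 4.53 and -3.56 bp. With at least 10 reads in every library the shortened set gave 17.1 bp, and with ends before under 60% A 12.4 bp (exact permutation test, p = 0.178 for each). Both testis libraries ended upstream of all 8 others in 19 of the 199 last exons (9.55%) and downstream in 8 (4.02%). Of these, 13 and 7 differed by at least 50 bp, and others by only a few bp. The 2 sets share 7 exons, and counted once the orders are found in 19 (9.90%) and 7 (3.65%) of 192, beside 10.6% and 3.52% of all 284 such last exons of FSM transcripts.

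Among the exons with testis upstream, FBXL20, an F-box protein, had its mean end 605 and 669 bp beyond the annotated end in BMI and DSE testis and 854 to 1064 bp beyond it in the others. EDEM3, of the endoplasmic reticulum's disposal of misfolded glycoproteins, lay at 1175 and 1046 bp against 1290 to 1296 bp. NDUFA5, a subunit of respiratory complex I, and CTDSP2, a small phosphatase, lay 177 and 102 bp further upstream in testis. Among those with testis downstream, VEZT, a protein of adherens junctions and the acrosome, lay at -395 bp from the annotated end in both testis libraries and at -1445 to -512 bp in the others, where negative is upstream. PDCD4, an inhibitor of translation, lay at 3827 and 3832 bp beyond the annotated end in testis and at 2681 to 3784 bp in the others. These genes were picked for their values, so their order is a description.

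**Figure D5:**
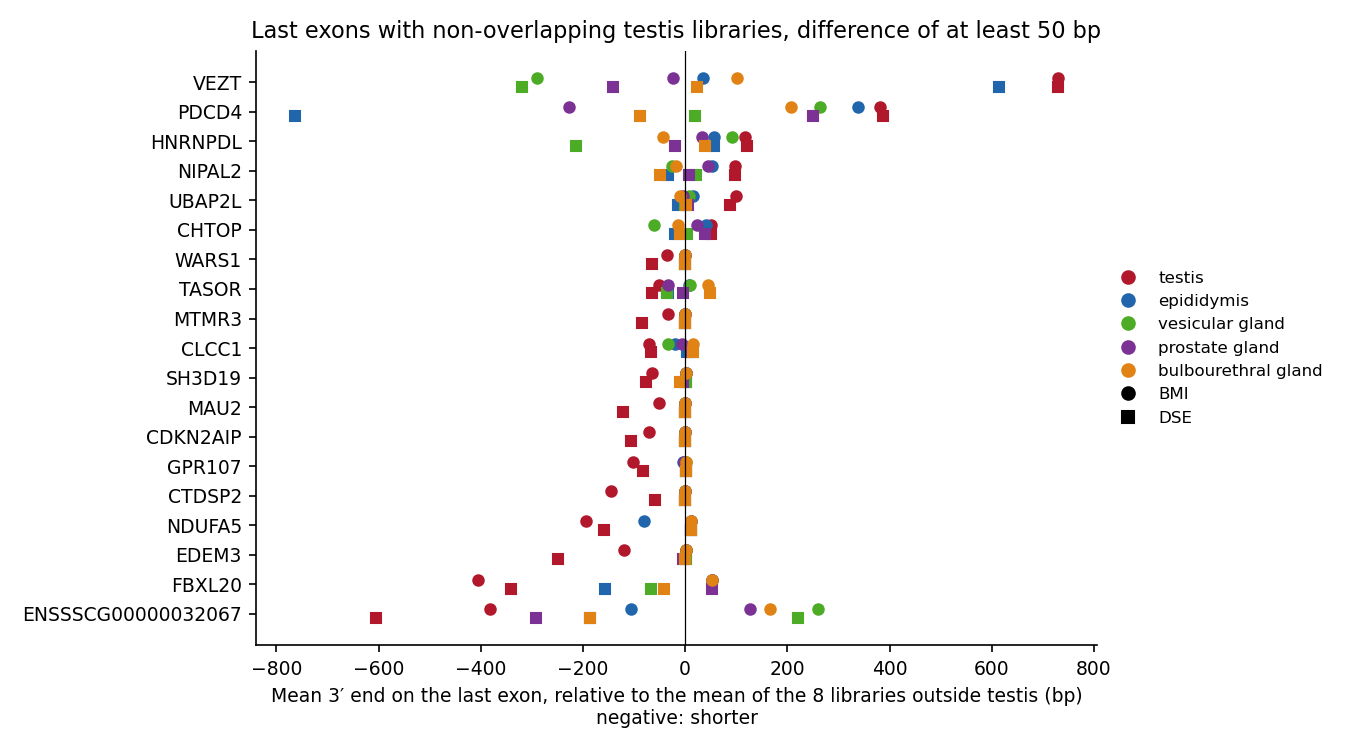
Mean position of the deposited 3′ ends of a gene's isoforms, weighted by their reads, on the last exon of a shifted isoform. Values are relative to the mean of the 8 libraries outside testis (bp, negative is shorter), for exons where both testis libraries (red) lie beyond all others by a mean of at least 50 bp. The upper 6 rows, from VEZT to CHTOP, have testis longer, and the other 13 have it shorter, down to -494 bp.

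Since each annotated intron chain had 1 deposited FSM isoform with 1 end, reads of an FSM isoform with a shifted end cannot be seen at the annotated end, and reads there come from other isoforms of the gene. Any such isoform of the gene had a read within 50 bp of the annotated end for 41 of 1320 3′ shortened (3.11%) and 193 of 1293 3′ lengthened isoforms (14.9%). These shares do not measure how often annotated ends are used. In a few genes picked for their numbers, both ends had reads and the balance differed between testis and the other glands. ALDH1A2, which makes retinoic acid, had 314 reads at its end extended by 1166 bp and 195 at the annotated end in testis, but 349 and 3 in the other glands. SH3D19, an adaptor protein, had 195 and 71 in testis and 210 and 2 elsewhere. UBAP2L, a protein of stress granules, had 68 reads at the end cut short by 189 bp and 86 at the annotated end in testis, and 459 and 44 elsewhere. CXXC5, a zinc finger protein, had no read in testis at the end cut short by 556 bp and 129 at the annotated end, and 48 and 101 elsewhere. In ALDH1A2 and SH3D19 the shorter end was more prominent in testis, and in UBAP2L and CXXC5 the longer one.

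The machinery that cuts and tails mRNAs was read from RNA-seq, summed per gene, on a list of 52 genes of which 45 were tested. In testis 14 rose and 1 fell, beside 34.6% higher and 12.7% lower of all 19796 genes, so the list was near the background in the share that rose, and its median log2 difference was 0.36 against 0.31 for all genes. Of the cleavage and polyadenylation factors and tail-binding proteins, 9 of 23 rose and none fell (limma), and of the regulators of site choice, 5 rose and 1 fell of 22. At an unadjusted p under 0.05, 1 of the 23 was lower at any size, the poly(A) polymerase TENT4A, which differed by -0.50 (adjusted p = 0.00148) and so was short of the size limit. In the CPSF complex, CPSF2 had 22.9 to 59.1 TPM (median 43.8) in the 6 testis libraries and 3.69 to 18.2 TPM (median 10.9) in the 24 others, without overlap (log2 difference 1.99, SE 0.14, adjusted p = 1.40e-12). CPSF3, the endonuclease, rose by 1.09 and WDR33, which binds the hexamer, by 1.02. CSTF1 rose by 1.64, but CSTF2 differed by 0.51 and its relative CSTF2T, which is known for its part in spermatogenesis, by -0.37 (adjusted p = 0.0857), both short of the limit. CLP1 of cleavage factor II rose by 1.92, the scaffold SYMPK by 1.08, the poly(A) polymerases PAPOLA and TENT4B by 1.06 and 1.64, and the tail-binding PABPC1 by 1.46. NUDT21 and CPSF6 of cleavage factor I, which favour distal sites, differed by -0.09 and 0.15 and did not pass. Among regulators, ELAVL2 was at 3.61 to 14.2 TPM in testis and 0 to 0.378 TPM elsewhere (log2 difference 3.32, adjusted p = 8.55e-18), CCNK rose by 2.23, PTBP2 by 1.79, NOVA2 by 1.35 and ELAVL1 by 1.13, and MBNL2 fell by 1.05. With size factors in place of TPM scaling, 9 of the 45 rose and 1 fell, beside 31.7% higher and 15.9% lower of all 19557 genes then tested.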

How the data were processed

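The members, gene lists and comparisons were chosen with earlier results of these data known. RNA from 5 glands of 2 pig breeds was sequenced by PacBio Iso-seq (10 libraries) and Illumina RNA-seq (30 libraries). The authors clustered full-length reads with a poly(A) tail over all samples, aligned the high-quality isoforms to Sscrofa11.1 with GMAP, collapsed them with cDNA_Cupcake, which removed 5′ degraded isoforms, and their own program, and classified them with SQANTI3 against Ensembl. The deposited Iso-seq values are raw full-length read counts per isoform and library. The deposited RNA-seq values are TPM per transcript, made by the authors with STAR 2.7.10a and Salmon 1.9.0 (per the submitters' processing notes) on Ensembl merged with the new isoforms. The FSM isoforms were not among these new isoforms. The labels name rRNA depletion for RNA-seq and the methods poly-T purification. The deposited table also gives, from SQANTI3, the percent of A in the 20 genomic bases after each end, and was used as deposited. Libraries of cDNA were PCR-amplified without molecular identifiers, so intervals and floors cover counting error only.

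FSM isoforms with a start or end more than 100 bp from the annotated one were kept. Counts of all isoforms with at least 10 reads were fitted with edgeR 4.0.16 (TMM, quasi-likelihood, gland and breed as terms, testis against the mean of the 4 other glands), and within genes with diffSpliceDGE. Log2(TPM + 1) was fitted with limma 3.58.1 on breed and gland means for transcripts or summed genes that reached 1 TPM in 3 or more libraries. Adjusted p-values are Benjamini-Hochberg over all features tested, and calls needed 0.05 and a log2 difference of 1 (usage only 0.05). Fold changes on the log2(TPM + 1) scale understate low genes. Values per library were compared by exact permutation, 2 testis against 8 libraries, or by exact sign flips over 10 libraries. RefSeq genes and sequence were taken from Sscrofa11.1, and the 20 bases after the end were identical to those in the deposited table for all 3980 members on numbered and sex chromosomes. Scripts were tested on simulated data. Software was Python 3.11.15, pysam 0.24.0, scipy 1.17.1 and R 4.3.3, with DESeq2 1.42.0 as an alternative.

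Genes were named by rule: 5 (3′ end) or 3 (5′ end only) largest changes in each direction among called isoforms with testis beyond all other libraries, the 4 smallest adjusted p of usage in each direction, the isoforms nearest to 100 bp, the 2 with the most reads per gland and the end-processing genes that passed. A few genes that the rule gives are not reported here. Others are marked as picked after their values were seen. The planned share of the proximal end within an annotated transcript, the genes it would have named and the sequences planned for them could not be had, since each transcript had 1 FSM isoform. It was replaced by the tests of ends, last exons and annotated ends. 6 listed genes had no gene ID under their symbol. Alternatives were other read filters, scalings, distances, model terms, and leaving out libraries or the 10 FSM isoforms with the most reads.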

Additional observations from a re-analysis of the deposited data

Results flagged for a closer look

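A library far from the others of its group was found for 5 values by Dixon's test at 95%, which chance flags in about 1 in 20 groups. In BMI epididymis, 3′ lengthened isoforms took 30.2% of the FSM reads, while the other 7 libraries outside testis lay at 22.6% to 23.9%. In DSE epididymis, the mean 3′ end on the last exons of 3′ lengthened isoforms lay at -22.2 bp, against -2.76 bp and above in the other libraries outside testis. In DSE testis replicate 2 of RNA-seq, CSTF1 stood at 11.2 TPM, TENT4B at 18.1 TPM and CCNK at 34.8 TPM, the lowest of the 6 testis libraries, whose medians were 20.1, 40.6 and 84.2 TPM.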

How the results depend on the processing

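Of the tests across all isoforms, the calls of 3′ shortened and lengthened isoforms in testis stayed within 1.5 times of their share under other distances, scalings, DESeq2, a filter of 20 reads and without both prostate libraries. With no filter on reads, 13.2% of the 3′ shortened isoforms were higher and 2.05% lower in testis, and 11.4% of the lengthened were higher and 3.02% lower, as more isoforms of few reads were tested. Leaving out each library in turn gave 10.9% to 22.9% and 1.28% to 5.64% for the shortened and 10.7% to 21.1% and 2.17% to 9.14% for the lengthened, 3 to 25 and 3 to 31 calls of usage, and 0 to 6 and 0 to 4 calls of end usage. End usage of 3′ lengthened isoforms was called 1 time without the breed term, which is the fit with no replicate block. It was called 4 times without both prostate libraries or either of them, and 1 time without either vesicular or either bulbourethral library. The lowest values of the ranges above come from fits without a testis library, which leave 1 library for testis. The difference in the share of 3′ shortened reads was -1.34 points at 1000 bp, and the cause was not tested. The last exons of lengthened isoforms gave -3.06 bp at 3 reads and -1.16 bp at 10 reads in every library and -3.56 bp without both prostate libraries, and leaving out single libraries gave -4.95 to 5.17 bp for them and -8.58 to 14.2 bp for the shortened, which gave 17.1 bp at 10 reads. With at least 2 reads, the differences between shifted and other FSM isoforms in canonical junctions (-0.0159 points) and in coding isoforms (0.189 points) no longer passed, and at 1000 bp those in coding isoforms (-0.632) and in predicted nonsense-mediated decay (-0.206) turned, so these features were not reported. A pseudocount of 0.1 gave 20.7% of annotated transcripts of 3′ shortened isoforms lower in testis (19.9% of all transcripts), and size factors 9 rising end-processing genes (13 to 14 when replicates were left out). With a replicate block, RNA-seq gave 26.9% higher and 11.004% lower for 3′ shortened isoforms with 1 call lost. It changed no call of the 3′ lengthened isoforms or the end-processing genes. Same-numbered libraries deviated together with a mean correlation of 0.00924 (-0.365 to 0.441, 135 pairs). Within a breed it was 0.0416 over 60 pairs, 18 of them over 0.1. The 120 pairs with different numbers had -0.01995, but deviations from a group mean sum to 0, which ties this value to the first. The numbers were not taken as a pairing, and whether they mark shared animals is not known. The planned proximal end share and its alternatives were not run, since no annotated transcript had 2 FSM ends. Depth limits the usage tests, as 411 of 1320 3′ shortened isoforms had under 10 reads, and a further 468 had no second tested isoform of the gene.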
